A study of Mus musculus with 22 samples.

Results

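The metal transporter genes of the mouse colon crypt were taken as all genes whose symbols name a member of the solute carrier families Slc11, Slc30, Slc31, Slc39, Slc40 and Slc41. The rule found 32 of the 24421 genes in the count files: 2 of Slc11, 10 of Slc30, 2 of Slc31, 14 of Slc39, 1 of Slc40 and 3 of Slc41. RNA was sequenced from 22 libraries of live Epcam+ cells, negative for Cd31 and Cd45, that were flow sorted from colons of untreated wild type C57BL/6N males aged 5 to 7 weeks. Cd44, Cd24 and the receptor Ckit set the gates: stem cells (3 libraries) were Cd44highest, Cd24low and Ckit-, absorptive progenitors (AbsPro, 3 libraries) were Cd44med/hi, Cd24low and Ckit-, and SecPDG (4 libraries), a gate of secretory progenitors and deep crypt secretory cells in which some goblet cells may remain, were Cd44hi, Cd24med and Ckitmed. Tuft cells (5 libraries) were Ckit+ and Cd24hi, enterocytes (5 libraries) were Cd44low/- and Cd24-, and enteroendocrine cells (EECs, 2 libraries) were Cd44low/- and Cd24+. Sorted cells and RNA were pooled where amounts were low. Per the authors' methods, each stem cell and AbsPro library came from 1 mouse, and each library of the other cell types from several. Pooling of mice thus cannot be told apart from these cell types.

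Each metal is moved across membranes by its own set of carriers. Slc39 (ZIP) proteins bring zinc, and some of them manganese or iron, into the cytosol, while Slc30 (ZnT) proteins move zinc out of the cytosol, either out of the cell or into organelles. In the absorptive epithelium of the gut, Slc11a2 (DMT1) imports ferrous iron at the apical membrane and Slc40a1 (ferroportin), the known cellular iron exporter, releases it at the basolateral side. Slc31a1 (Ctr1) imports copper, and the Slc41 proteins carry magnesium.

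Genes of metal handling can be under metal control through short sequence elements, and matches to these elements in the genes described below are shown here. The iron responsive element is an RNA hairpin bound by iron regulatory proteins: in a 5′ UTR it blocks translation, and in a 3′ UTR it protects the mRNA. It was searched for in GENCODE transcripts (GRCm38) as a C, 5 bases, the loop CAGTGN and 5 bases that pair with the first 5, G-T pairs allowed. Of the 32 members, 1 held a match in a 5′ UTR, against 0.148% of 20899 genes, and that member was Slc40a1. In a 3′ UTR 0 of 32 held one, against 0.613% of 21028 genes. The pattern asks for 5 unbroken pairs, so a hairpin with an unpaired base there is not found. The lack of a match thus does not show that a member, Slc11a2 included, lacks an element. The match lies at chr1:45925466-45925492 on the minus strand within 1 exon of its 5′ UTR. It is shown with those of the ferritin genes Fth1 (chr19:9982733-9982759, plus strand) and Ftl1 (chr7:45459780-45459806, minus strand) and with the first of the 4 matches in the 3′ UTR of the transferrin receptor gene Tfrc (chr16:32631220-32631246, plus strand). Capitals mark the loop.
Slc40a1: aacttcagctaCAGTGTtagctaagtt
Fth1: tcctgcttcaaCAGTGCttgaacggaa
Ftl1: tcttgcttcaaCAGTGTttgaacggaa
Tfrc: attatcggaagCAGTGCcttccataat

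The metal response element is the DNA site of the zinc sensing factor Mtf1. Its core was searched for as TGCACNC or TGCGCNC on both strands, matches of the same base run on opposite strands counted separately, in the RefSeq promoter windows (GRCm38.p6) from 250 bases before to 50 bases after each start site. Windows were at hand for 26 members. Of their 31 windows 16 (51.6%) held a core, against 25.7% of all 32851 windows. Slc30a10 and Slc30a4 held 3 cores, and 3 or more were present in 1.97% of all windows. No core was found for Slc11a1, Slc30a7, Slc31a1, Slc39a1, Slc39a7 and Slc39a10, whose levels also differed between cell types. Slc39a5 and Slc39a8 each had another window without a core. The windows below are a selection of matches, of members whose levels differed between cell types, of the zinc exporter gene Slc30a1, and of the metallothionein gene Mt1, a textbook target. Each is read on the strand of its core, capitals mark the core, and a match is a description of the letters and not a measured binding site.
Slc30a1 (chr1:191906730-191906752, minus strand): ctttgcttTGCACTCggaacccc
Slc30a10 (chr1:185454767-185454789, plus strand): catcccaaTGCGCCCctcctccc
Slc39a5 (chr10:128401339-128401361, plus strand): tccctaagTGCACACctgctaac
Slc39a8 (chr3:135825630-135825652, minus strand): tcaggcccTGCACCCtttagaga
Slc41a2 (chr10:83337838-83337860, plus strand): tcgttcgtTGCGCTCttctggga
Mt1 (chr8:94179058-94179080, plus strand): tcccgctgTGCACACtggcgctc

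Libraries held 4122122 to 22462518 counts on genes. Expression is given as normalized counts, the reads of a gene scaled to a mean library by the TMM method. Reads on 1485 genes of families taken here as silent in the gut lining, most of them smell and pheromone receptors, gave a background. Genes were chosen by family name only, so any of them transcribed in these cells would raise it. It came to 13.1 to 155 CPM (counts scaled to the total on genes) in stem cells, AbsPro and SecPDG and to 178 to 1461 CPM in tuft cells. In enterocytes it was 764 to 3878 CPM, and in EEC libraries 1 and 2 it was 6970 and 607 CPM. The background expected for a member from its exon length is given where it reached 20% of the level. EEC library 1 had the fewest counts on genes of all libraries (4122122, against 13132315 in EEC library 2), and 89.7% of its reads fell on no feature. Calls in EECs against stem cells and SecPDG were therefore repeated without each EEC library, and those lost are named beside the gene. Of the member calls, 3 of 6 against stem cells and 7 of 12 against SecPDG held without either. The share of reads on no feature also differed within other cell types. It was 83.1, 81.0 and 82.0% in enterocyte libraries 1, 2 and 3, against 66.8 and 68.8% in libraries 4 and 5. In tuft library 5 it was 43.4%, against 59.5 to 68.0% in the other tuft libraries. The part of these differences in the levels of members was not tested. Sums of the marker lists were highest in the cells of that name for stem, tuft and enteroendocrine markers. The 6 enterocyte markers summed to 50309 to 75196 normalized counts in enterocytes, but to 67212 to 102744 in AbsPro and to 22046 and 135162 in the EEC libraries. The 6 goblet markers summed to 641790 to 2935900 in SecPDG, and they were also high in tuft cells (653239 to 1056260) and enterocytes (233599 to 673676) against stem cells (17135 to 29585). In bulk RNA, fewer cells of a type and less RNA per cell cannot be told apart.

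All 32 members passed the filter on low counts, and 28 had a mean of at least 50 normalized counts, as did 13188 of the 22781 genes tested. Per kilobase of exon, mean levels ran from 974 normalized counts for Slc39a7, a zinc carrier of the endoplasmic reticulum, through 594 for Slc39a1, 433 for Slc39a4, 406 for Slc39a11, 289 for Slc30a4 and 287 for the copper importer Slc31a1, to 14.1 for Slc30a2. The 4 members below the minimum were Slc39a2 with 10.9 normalized counts per kilobase, Slc39a12 with 10.4, Slc30a3 (the carrier of synaptic vesicles) with 9.58 and Slc30a8 (the carrier of insulin granules) with 7.71. Slc30a3 and Slc30a8 had no read in the 6 stem cell and AbsPro libraries, where a count of 0 allows 1.92 to 2.81 normalized counts, a limit that covers counting error only. In enterocytes the background came to 25.3% of the level of Slc30a3, 29.4% of Slc30a8, 20.0% of Slc39a2 and 31.1% of Slc39a12. In tuft cells it came to 40.2% for Slc30a3, 31.5% for Slc30a8 and 31% for Slc39a2, and in EECs to 20.7% for Slc30a8, 26.1% for Slc39a2 and 20.0% for Slc39a12. In SecPDG it exceeded the level of Slc30a8 (238%). The zinc importers held 4 of the highest 5 places per kilobase.

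**Figure D1:**
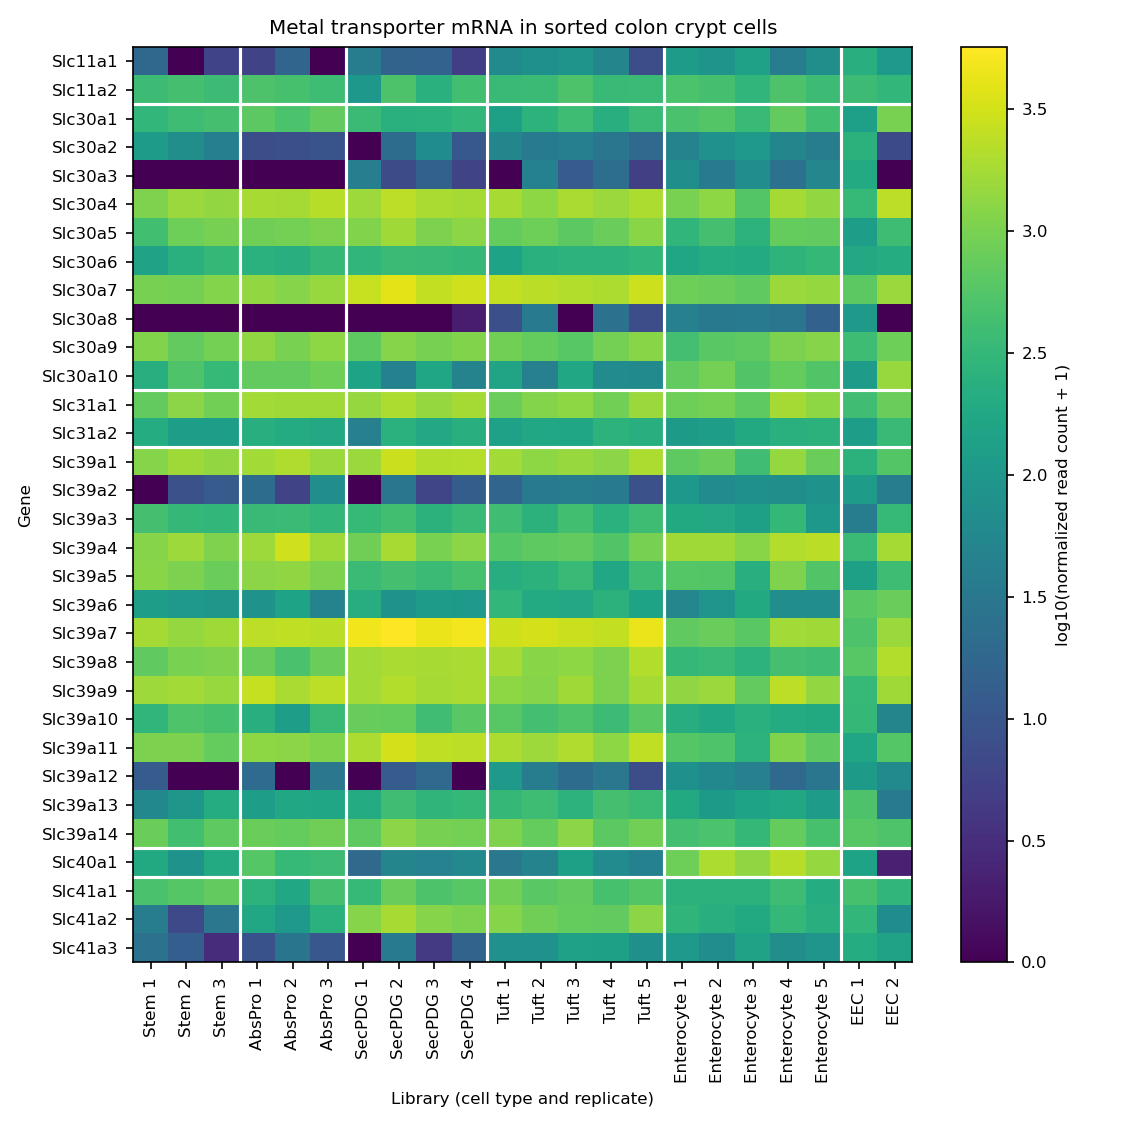
Levels of the 32 metal transporter genes (rows, by family) in the 22 libraries (columns, by cell type), as log10 of the normalized read count plus 1 (colour). Slc39a7 was the brightest row, Slc41a2 was dark in the 3 stem cell libraries, Slc40a1 was bright in the 5 enterocyte libraries, and the 2 EEC libraries differed from each other in many rows.

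The first question was which transporter genes differ between stem cells and their progeny. A member was called at an adjusted p under 0.01 in edgeR's quasi-likelihood test over all genes and a mean of at least 50. In AbsPro 1 of 32 members was called against stem cells (higher), beside 0.588% of all genes, 0.496% higher and 0.0922% lower. In SecPDG 6 members were called, 4 higher and 2 lower, beside 4.98% of all genes, 3.38% higher and 1.6% lower. In tuft cells 6 were called, 4 higher and 2 lower, beside 12.1% of all genes, 7.83% higher and 4.23% lower. In enterocytes 6 were called, 4 higher and 2 lower, beside 22.2% of all genes, 10.7% higher and 11.5% lower. In EECs 6 were called, 4 higher and 2 lower, beside 19.9% of all genes, 10.8% higher and 9.14% lower. Of the genes over the minimum mean, 1.02%, 8.6%, 20.8%, 38.4% and 34.4% were called in these 5 comparisons, against 3.57% of the members in AbsPro and 21.4% in each of the other 4. The count thus stood above that of all genes in SecPDG, near it in tuft cells and below it in enterocytes and EECs. The median log2 change of the 28 members over the minimum was 0.34, 0.38, 0.23, -0.13 and -0.24, beside 0.04, -0.06, -0.09, -0.30 and -0.30 for all genes over it. The scaling moved these medians: with the size factors of DESeq2 all genes stood at 0.35 in enterocytes and 0.48 in EECs, and the members at 0.40 and 0.43. The calls then became 6 higher and 1 lower in SecPDG, 7 and 2 in tuft cells, 8 and 1 in enterocytes, and 8 and 2 in EECs. With library totals they were 6 and 1 in enterocytes. The shares of all genes given above are those of the TMM fit of all libraries. Shares under another scaling or in a smaller fit are not given here, so these counts have no such share beside them. When only EECs and stem cells were fitted, 1 of the 6 calls in EECs held, that of Slc39a6, and those of Slc11a1 (edgeR adjusted p = 0.021), Slc39a1 (0.0161), Slc39a5 (0.0211), Slc41a2 (0.062) and Slc41a3 (0.0199) were lost. Without EEC library 1 there were 3 higher and 3 lower calls in EECs, and without EEC library 2 there were 5 and 9.

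The number of calls also rested on how edgeR estimates the spread between libraries. Its older fit called 1, 3, 2, 4 and 4 members in AbsPro, SecPDG, tuft cells, enterocytes and EECs against stem cells, beside 0.364, 3.1, 6.44, 13.5 and 14.0% of all genes, and 21 of the 45 calls in the 8 comparisons were lost with it. The calls that held there against stem cells were those of Slc41a2 in all 5 cell types, of Slc39a7 and Slc30a7 in SecPDG, of Slc39a5 in tuft cells and EECs, of Slc40a1, Slc39a8 and Slc41a1 in enterocytes, and of Slc39a6 and Slc39a1 in EECs. The fit used here was chosen after values under both had been seen.

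Later steps of each lineage were compared in the same fit. Between AbsPro and enterocytes 7 members were called, 4 higher and 3 lower in enterocytes, beside 16.2% of all genes, 8.21% higher and 7.98% lower. With either other scaling the calls were 4 higher and 1 lower. The count was 3 without AbsPro library 2, 4 without enterocyte library 2 and 1 without enterocyte library 3. The older fit called 0, beside 5.09% of all genes, with 13 members and 51.0% of all genes at an unadjusted p under 0.05. DESeq2 called 6. Between SecPDG and tuft cells 1 member was called (higher), beside 3.36% of all genes, 3.01% higher and 0.347% lower. The older fit called 0 there, beside 0.9% of all genes, with 3 members and 30.1% of all genes at an unadjusted p under 0.05. DESeq2 called 1. Between SecPDG and EECs 12 members were called, 4 higher and 8 lower in EECs, beside 21.3% of all genes, 11.2% higher and 10.1% lower. With either other scaling the calls there were 5 higher and 6 lower, and the older fit called 10, beside 15.0% of all genes.

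A pair of further comparisons was added after the values were seen. SecPDG differed from AbsPro in 6 members, 3 higher and 3 lower, beside 3.72% of all genes, 2.0% higher and 1.73% lower. Enterocytes differed from tuft cells in 10 members, 3 higher and 7 lower, beside 8.44% of all genes, 2.65% higher and 5.79% lower. The other 5 pairs of cell types were used only to place single genes. There 7 members were called in tuft cells against AbsPro (8.13% of all genes), 10 in EECs against AbsPro (18.3% of all genes) and 14 in enterocytes against SecPDG (23.4% of all genes). Against EECs, 7 were called in tuft cells (9.29% of all genes) and 3 in enterocytes (4.71% of all genes). These comparisons share libraries, so their calls are not independent of each other.

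**Figure D2:**
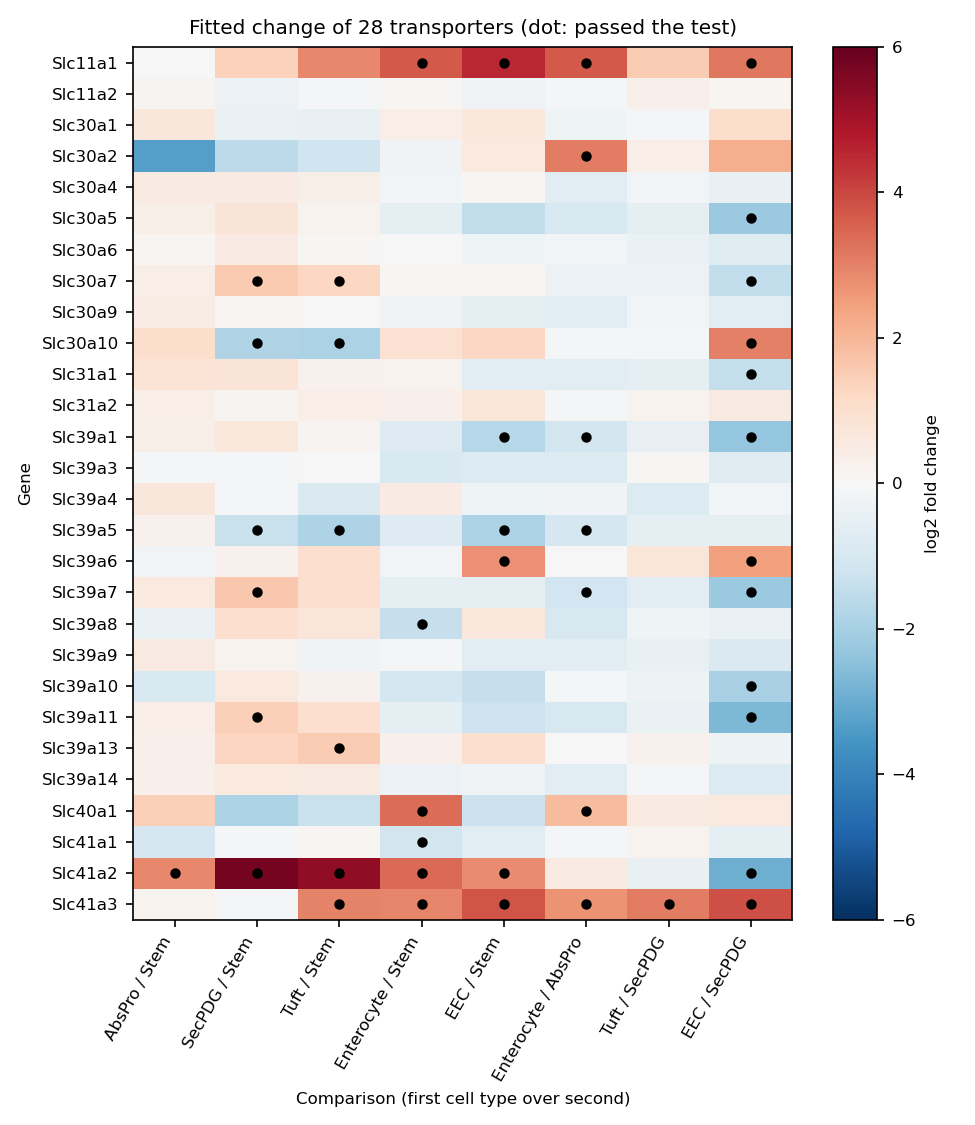
Fitted log2 fold change (colour, first cell type over second) of the 28 members with a mean of at least 50 normalized counts in the 8 comparisons, with a dot where the gene passed the test. The row of Slc41a2 carries a dot in all 5 comparisons with stem cells, and 12 dots stand in the column of EECs against SecPDG.

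Among the magnesium carriers of the Slc41 family, Slc41a2 was called lower in stem cells than in each of the other 5 cell types. Slc41a2 had 37.5, 5.76 and 30.3 in stem cells, 174, 104 and 250 in AbsPro and 1178, 1820, 1162 and 1034 in SecPDG. Tuft libraries held 1173, 886, 747, 705 and 1245, enterocytes 285, 232, 192, 317 and 234, and EECs 309 and 65.5. Stem cells thus lay below all other libraries, and SecPDG and tuft cells lay above the other 4 cell types with no overlap. The level was 54.1-fold higher in SecPDG than in stem cells (log2 fold change 5.76 ± 0.49 (SE), adjusted p = 5.33e-13 in edgeR) and 40-fold higher in tuft cells (5.32 ± 0.49, adjusted p = 9.25e-13 in edgeR). It was 10.5-fold higher in enterocytes (3.40 ± 0.55, edgeR adjusted p = 2.51e-06), 7.3-fold higher in AbsPro (2.87 ± 0.60, edgeR adjusted p = 0.00333) and 7.16-fold higher in EECs (2.84 ± 0.73, edgeR adjusted p = 0.0013). In order of the means, SecPDG (1298 ± 354 (SD, n = 4)) and tuft cells (951 ± 246 (SD, n = 5)) were not called apart (log2 difference -0.44 ± 0.27), and enterocytes (252 ± 49.3 (SD, n = 5)), EECs (187 ± 172 (SD, n = 2)) and AbsPro (176 ± 73.2 (SD, n = 3)) were not called against each other. EECs were 7.55-fold below SecPDG (-2.92 ± 0.49, edgeR adjusted p = 3.05e-06). The call of Slc41a2 in AbsPro was lost without stem library 1, 2 or 3 (adjusted p = 0.0128, 0.0329 and 0.013 in edgeR) and without AbsPro library 3 (0.025), and that in EECs without EEC library 1 (0.32, with a log2 change of 1.3). Goblet markers were also high in SecPDG and tuft cells, as given above, and their part in the level of Slc41a2 was not tested.

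The other Slc41 genes followed other patterns. Slc41a3, a magnesium carrier of mitochondria, had 25.2, 12.2 and 2.02 in stem cells, 7.77, 27.7 and 9.38 in AbsPro and 0, 36.1, 3.37 and 14.7 in SecPDG. Tuft libraries held 78.1, 79.5, 142, 135 and 76.1, enterocytes 107, 68.8, 146, 70.7 and 88.6, and EECs 208 and 146. All tuft, enterocyte and EEC libraries lay above all libraries of stem cells, AbsPro and SecPDG. The log2 fold change was 2.98 ± 0.70 in tuft cells against stem cells (edgeR adjusted p = 0.00118), 3.76 ± 0.79 in EECs against stem cells (edgeR adjusted p = 0.000114), 2.68 ± 0.73 in enterocytes against AbsPro (edgeR adjusted p = 0.00276), 3.07 ± 0.72 in tuft cells against SecPDG (edgeR adjusted p = 0.00315) and 3.85 ± 0.81 in EECs against SecPDG (edgeR adjusted p = 0.000106), and enterocytes were also called against stem cells. The libraries with more Slc41a3 are also those with the higher background, which came to 13.3 of the mean of 96.1 normalized counts in enterocytes and to 6.73 of 102 in tuft cells. The part of background reads in its differences was not tested. Several of the Slc41a3 calls rest on single libraries. That in tuft cells against stem cells was lost without stem library 2 (0.0106) or 3 (0.0182), and that in enterocytes against stem cells without stem library 3 (0.0155). That in enterocytes against AbsPro was lost without AbsPro library 1 (0.0361) or 3 (0.0217) or enterocyte library 3 (0.0128). That against SecPDG in tuft cells was lost without SecPDG library 1 (0.0202), 3 (0.0295) or 4 (0.0164) or tuft library 3 (0.0111) or 4 (0.0165). Slc41a1, a sodium and magnesium exchanger, had 470, 576 and 711 in stem cells, 266, 180 and 441 in AbsPro and 331, 808, 503 and 591 in SecPDG. Tuft libraries held 896, 627, 704, 465 and 563, enterocytes 255, 254, 258, 391 and 209, and EECs 454 and 295. It was lower in all 5 enterocyte libraries than in the stem cell libraries (log2 fold change -1.09 ± 0.33, edgeR adjusted p = 0.00407), but the call was lost with DESeq2 (0.193), its size factors (0.114), library totals (0.07) and only the cell types compared (0.0112), and without enterocyte library 2 (0.0109) or 5 (0.0111).

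**Figure D3:**
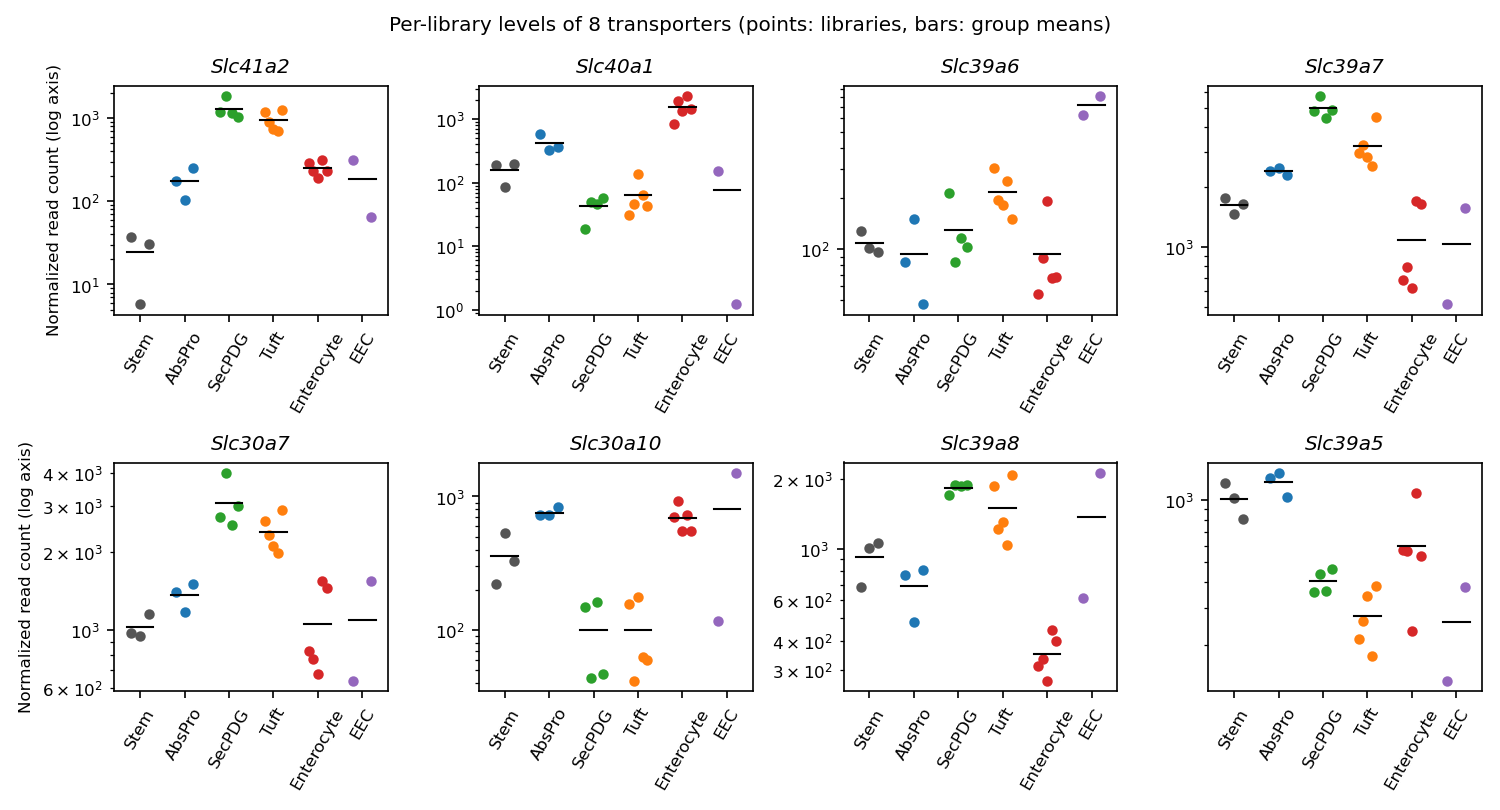
Normalized read counts (log axis) of 8 transporters by cell type, with a point for each library and a bar at the mean of the group. Slc41a2 ran from 5.76 to 37.5 in stem cells and from 705 to 1820 in tuft cells and SecPDG, Slc40a1 ran from 830 to 2282 in enterocytes, and Slc39a6 stood at 631 and 809 in EECs.

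Among the iron carriers, Slc40a1 was called higher in enterocytes than in each of the other 5 cell types. Its libraries held 193, 85.1 and 195 in stem cells, 576, 324 and 368 in AbsPro and 18.9, 49.7, 45.5 and 56.8 in SecPDG. Tuft libraries held 30.5, 46.7, 136, 63.3 and 43.5, enterocytes 830, 1955, 1341, 2282 and 1441, and EECs 152 and 1.21. The 5 enterocyte libraries lay above all others, and the SecPDG libraries lay below those of stem cells and AbsPro. Enterocytes stood 10.1-fold above stem cells (log2 fold change 3.33 ± 0.39, edgeR adjusted p = 1.6e-09) and 3.71-fold above AbsPro (1.89 ± 0.35, edgeR adjusted p = 5.59e-05). They were 37.2-fold above SecPDG (5.22 ± 0.44, edgeR adjusted p = 6.73e-14) and 25.2-fold above tuft cells (4.66 ± 0.39, edgeR adjusted p = 1.68e-14). EECs were 24.6-fold below enterocytes (-4.62 ± 0.61, edgeR adjusted p = 3.89e-08). In order of the means, AbsPro (422 ± 135 (SD, n = 3)) came next and was not called against stem cells (158 ± 62.9 (SD, n = 3), adjusted p = 0.0753 in edgeR). Below stem cells, EECs (76.5 ± 107 (SD, n = 2)), tuft cells (64.1 ± 42.1 (SD, n = 5)) and SecPDG (42.7 ± 16.6 (SD, n = 4)) were not called against each other or against stem cells. The background made up 67.0% of the level in EECs and 32.5% in tuft cells. The 5 calls of Slc40a1 in enterocytes held in every fit that left out 1 library. In the older edgeR fit that against AbsPro was lost (adjusted p = 0.019) and the other 4 held. SecPDG was also called below AbsPro for Slc40a1.

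The Slc11 genes did not share this pattern. Slc11a2, the apical iron importer, was called in none of the 15 pairs of cell types, and its group means ran from 314 normalized counts in SecPDG to 447 in AbsPro. Slc11a1, the metal carrier of phagosomes, had 17.6, 0 and 4.72 in stem cells, 4.95, 15.5 and 0 in AbsPro and 37.8, 14.9, 14.3 and 3.92 in SecPDG. Tuft libraries held 61, 75.7, 85.9, 50.6 and 6.69, enterocytes 116, 87.2, 140, 37.6 and 70.6, and EECs 230 and 108. Both EEC libraries lay above all libraries of stem cells, AbsPro, SecPDG and tuft cells, while enterocytes overlapped with EECs, tuft cells and SecPDG. The log2 fold change was 3.67 ± 0.85 in enterocytes against stem cells (edgeR adjusted p = 0.000388), 4.51 ± 0.93 in EECs against stem cells (edgeR adjusted p = 7.51e-05), 3.66 ± 0.89 in enterocytes against AbsPro (edgeR adjusted p = 0.00115) and 3.15 ± 0.78 in EECs against SecPDG (edgeR adjusted p = 0.000838). The background made up 18.7% of the Slc11a1 level in enterocytes, 15.3% in tuft cells and 12.5% in EECs. Markers of other cells were also higher in these 3 cell types. The 8 immune markers summed to 1468 to 3507 normalized counts in tuft cells, 683 to 2441 in EECs and 440 to 1068 in enterocytes, against 200 to 211 in stem cells, 100 to 247 in AbsPro and 37.9 to 147 in SecPDG. The mean of Slc11a1 was 169 in EECs, 90.2 in enterocytes and 56.0 in tuft cells. Most of the immune marker sum in tuft cells came from Ptprc, the gene of Cd45, with a mean of 1671 against 427 in EECs and 115 in enterocytes. Means in EECs, enterocytes and tuft cells were 225, 123 and 60.1 for Adgre1 and 276, 174 and 114 for Csf1r. They were 179, 81.5 and 21.7 for Cd68, 310, 187 and 161 for Itgam and 141, 59.4 and 23.7 for Cd3e. Lyz2 had 4.25, 37.2 and 15.8, and Cd79a had 0, 25.9 and 27.6. The EEC libraries stood at 0 and 551 for Csf1r. The 6 stromal markers summed to 432 to 2587 in EECs, 655 to 1561 in enterocytes and 238 to 809 in tuft cells, and the 4 endothelial markers to 1303 to 1858, 464 to 1158 and 231 to 715. Of the immune markers, only Cd79a had no read in both EEC libraries. Cells with Cd45 were gated out in the sort, and the part of other cells in the level of Slc11a1 was not tested. The call in enterocytes against stem cells was lost without stem library 2 (0.0109). That in EECs was lost without EEC library 1 against stem cells (0.0109) and against SecPDG (0.0712). That in enterocytes against AbsPro was lost without AbsPro library 1 (0.0205) or 3 (0.0151). Without enterocyte library 3 both enterocyte calls were lost because the mean of Slc11a1 fell under 50. Over all libraries that mean was 53.7, close to the minimum, and it also counts the EEC libraries at 230 and 108. The enterocyte calls thus rest in part on libraries outside their comparisons. Fits without a library of another cell type were not counted for them.

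Of the zinc exporter family Slc30, Slc30a7 was high in SecPDG and tuft cells, where Slc30a10 was low. Slc30a7, which fills the Golgi with zinc, had 975, 945 and 1149 in stem cells, 1403, 1170 and 1502 in AbsPro and 2708, 4005, 2529 and 2999 in SecPDG. Tuft libraries held 2608, 2323, 2101, 1976 and 2895, enterocytes 830, 776, 677, 1544 and 1455, and EECs 638 and 1545. All SecPDG and tuft libraries lay above all others. It was 2.98-fold above stem cells in SecPDG (log2 fold change 1.58 ± 0.33, edgeR adjusted p = 0.000483) and was called in tuft cells as well, a call lost without stem library 1 (adjusted p = 0.0194 in edgeR). It was lower in EECs than in SecPDG, a call lost without EEC library 1 (0.0105) and with only the cell types compared (0.015). Slc30a5, a partner of Slc30a6 in the early secretory pathway, had 412, 844 and 969 in stem cells, 869, 947 and 1040 in AbsPro and 1096, 1655, 1045 and 1276 in SecPDG. Tuft libraries held 735, 847, 647, 799 and 1226, enterocytes 299, 438, 267, 744 and 709, and EECs 125 and 387. It was called lower in EECs than in SecPDG, with no overlap of the libraries.

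Slc30a10, a manganese exporter, had 222, 532 and 326 in stem cells, 722, 723 and 829 in AbsPro and 149, 43.5, 163 and 47 in SecPDG. Tuft libraries held 157, 41.6, 176, 63.3 and 59.4, enterocytes 702, 920, 551, 728 and 547, and EECs 116 and 1501. AbsPro and enterocyte libraries lay above all SecPDG and tuft libraries, with no overlap. The gene fell by 1.79 ± 0.48 on the log2 scale from stem cells to SecPDG (edgeR adjusted p = 0.00874) and by 1.91 ± 0.47 to tuft cells (edgeR adjusted p = 0.00181). The call of Slc30a10 in SecPDG was lost with DESeq2 (0.0316), its size factors (0.0133) and a replicate block (0.0108), and without stem library 2 (0.185) or 3 (0.0272) or SecPDG library 1 (0.0125), 2 (0.0632) or 4 (0.0503), and that in tuft cells with DESeq2 (0.0171) and without stem library 2 (0.0442). SecPDG was also 7.21-fold below AbsPro (-2.85 ± 0.46, edgeR adjusted p = 7.15e-06), and enterocytes were 7.14-fold above tuft cells (2.84 ± 0.42, edgeR adjusted p = 4.56e-07), and these calls held without each library in turn. In EECs the libraries stood at 116 and 1501, and the call against SecPDG (3.02 ± 0.50, edgeR adjusted p = 3.42e-06) rested on EEC library 2: without it the log2 change was 0.14 (0.921).

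Slc30a2, a vesicle carrier, had 119, 71.1 and 41.1 in stem cells, 7.06, 7.32 and 8.44 in AbsPro and 0, 19.9, 64.9 and 9.79 in SecPDG. Tuft libraries held 51.3, 34.1, 40.4, 28.8 and 18.4, enterocytes 46.8, 78, 105, 52.5 and 37.4, and EECs 262 and 6.07. The 3 AbsPro libraries lay below those of stem cells and enterocytes, and the log2 fold change from AbsPro to enterocytes was 3.09 ± 0.97 (edgeR adjusted p = 0.00796). The background made up 25.4% of the Slc30a2 level in enterocytes and 23.8% in tuft cells, and the call was lost without AbsPro library 1 (0.0554), 2 (0.0307) or 3 (0.0388) or enterocyte library 1 (0.0187), 2 (0.0182) or 3 (0.0297). With only the cell types compared it was lost because the mean fell under 50 (edgeR adjusted p = 0.000186). Over all libraries the mean of Slc30a2 was 50.4, close to the minimum, and it counts EEC library 1 at 262. The call thus rests in part on a library outside its comparison. Fits without a library of another cell type were not counted for it. The other zinc exporters were not called in the 8 comparisons. Slc30a1, of the plasma membrane, had group means from 276 normalized counts in tuft cells to 611 in AbsPro, Slc30a4 from 1206 in enterocytes to 1945 in AbsPro, Slc30a6 from 197 in EECs to 328 in SecPDG and Slc30a9 from 616 in EECs to 1229 in AbsPro. Slc30a3 and Slc30a8 stayed under the minimum mean.

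**Figure D4:**
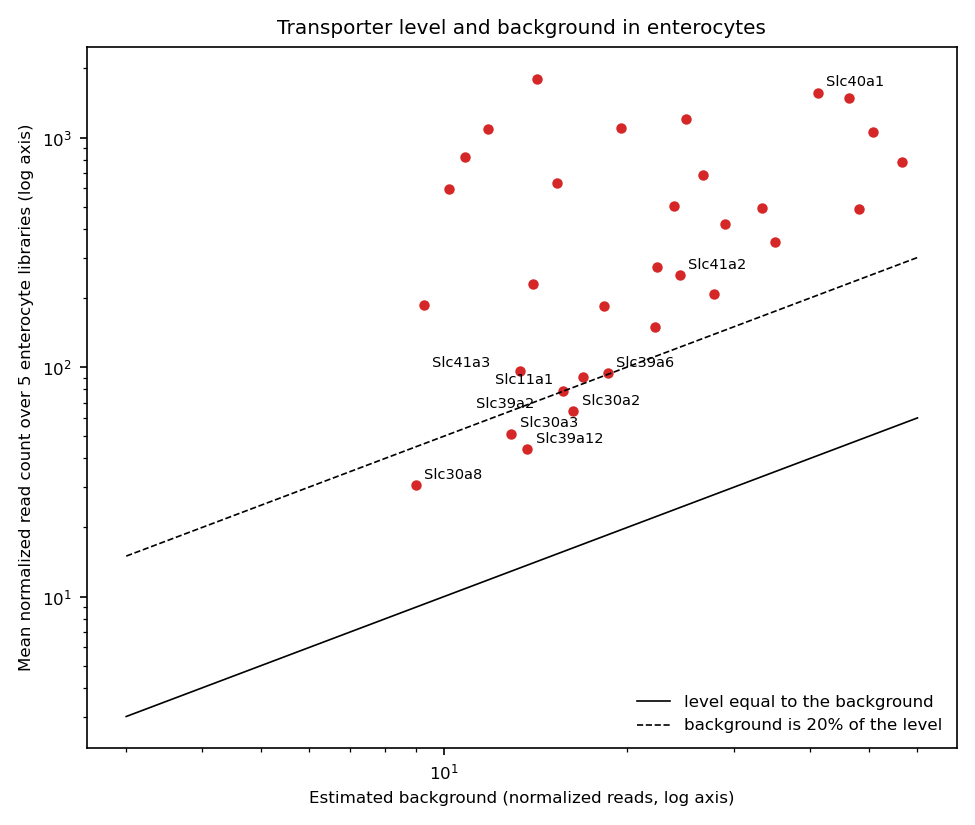
Mean normalized read count of each of the 32 members over the 5 enterocyte libraries against the background expected from its exon length (both log axes), with lines where the background equals the level and where it is 20% of it. Slc40a1 stands far above both lines, while Slc30a2, Slc30a3, Slc30a8 and Slc39a12 lie between them and Slc39a2 lies on the line of 20%.

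The zinc importers Slc39a7 and Slc39a11 had their highest means in SecPDG, as had Slc39a1, Slc39a8, Slc39a10 and Slc39a14. Slc39a7, which releases zinc from the endoplasmic reticulum and Golgi, had 1756, 1456 and 1640 in stem cells, 2410, 2497 and 2288 in AbsPro and 4788, 5686, 4449 and 4859 in SecPDG. Tuft libraries held 2959, 3247, 2831, 2531 and 4466, enterocytes 683, 792, 619, 1698 and 1638, and EECs 513 and 1562. It was 3.06-fold above stem cells in SecPDG (log2 fold change 1.61 ± 0.35, edgeR adjusted p = 0.000859), with no overlap, and this call held without each library in turn. It fell by 1.14 ± 0.33 from AbsPro to enterocytes (edgeR adjusted p = 0.00435), a call lost without AbsPro library 2 (0.0194) or enterocyte library 2 (0.0155) or 3 (0.0169) and with only the cell types compared (0.0138), and it was also lower in EECs than in SecPDG. Slc39a11 had 1026, 1026 and 744 in stem cells, 1329, 1253 and 1087 in AbsPro and 1958, 3245, 2513 and 2416 in SecPDG. Tuft libraries held 1972, 1627, 2053, 1319 and 2489, enterocytes 585, 519, 269, 1107 and 691, and EECs 159 and 588. SecPDG was called above stem cells for Slc39a11, a call lost without stem library 1 (0.012) or 3 (0.0129), and EECs were 6.41-fold below SecPDG (-2.68 ± 0.46, edgeR adjusted p = 5.1e-06).

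Slc39a13, another carrier of the secretory pathway, had 55.8, 94.7 and 212 in stem cells, 124, 172 and 158 in AbsPro and 202, 395, 290 and 313 in SecPDG. Tuft libraries held 320, 385, 265, 438 and 366, enterocytes 192, 110, 151, 178 and 120, and EECs 508 and 34. It was higher in all 5 tuft libraries than in stem cells (log2 fold change 1.54 ± 0.42, edgeR adjusted p = 0.00452), a call lost with library totals (0.0129) and without stem library 1 (0.0444) or 2 (0.0361) or tuft library 2 (0.0101) or 4 (0.0116). Slc39a8, which carries zinc and manganese, had 684, 1009 and 1057 in stem cells, 773, 480 and 807 in AbsPro and 1700, 1881, 1862 and 1888 in SecPDG. Tuft libraries held 1861, 1217, 1307, 1039 and 2091, enterocytes 312, 333, 268, 446 and 399, and EECs 609 and 2127. Enterocytes lay below all other libraries. The gene fell by 1.38 ± 0.33 from stem cells to enterocytes (edgeR adjusted p = 0.000564). Enterocytes were also called below tuft cells, and SecPDG above AbsPro, the latter lost without AbsPro library 2 (0.0515). Slc39a10, a carrier of the plasma membrane, had 291, 527 and 455 in stem cells, 235, 124 and 333 in AbsPro and 773, 741, 404 and 626 in SecPDG. Tuft libraries held 593, 433, 517, 370 and 622, enterocytes 221, 180, 240, 202 and 191, and EECs 318 and 49.7. It was called lower in EECs than in SecPDG, a call lost without EEC library 2 (0.112), with DESeq2 (0.273), its size factors (0.056), library totals (0.0559) and only the cell types compared (0.108). SecPDG was called above AbsPro for Slc39a10, a call lost with DESeq2 (0.0239), with library totals (0.0227) and without AbsPro library 1 (0.0188) or 2 (0.0927) or SecPDG library 1 (0.0223) or 4 (0.0117). Enterocytes were called below tuft cells for it, lost with DESeq2 (0.112), its size factors (0.053), library totals (0.0776) and without tuft library 5 (0.0122) or enterocyte library 2 (0.0124).

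Slc39a5 and Slc39a4 import zinc at the basolateral and the apical membrane of gut cells. Slc39a5 had 1203, 1022 and 811 in stem cells, 1280, 1348 and 1033 in AbsPro and 361, 441, 362 and 463 in SecPDG. Tuft libraries held 214, 261, 345, 177 and 383, enterocytes 575, 569, 232, 1073 and 534, and EECs 134 and 382. SecPDG and tuft libraries lay below all stem cell and AbsPro libraries. It fell by 1.86 ± 0.33 from stem cells to tuft cells (edgeR adjusted p = 1.95e-05), by 1.89 ± 0.46 to EECs (edgeR adjusted p = 0.000773) and by 1.32 ± 0.33 to SecPDG (edgeR adjusted p = 0.00507). It also fell by 1.03 ± 0.31 from AbsPro to enterocytes (edgeR adjusted p = 0.00607), with overlap of the libraries. The Slc39a5 call in tuft cells held without each library in turn. That in SecPDG was lost without stem library 1 (0.0443) or 2 (0.0147) or SecPDG library 1 (0.0217), 2 (0.0167), 3 (0.025) or 4 (0.0101), and that in EECs without EEC library 1 (0.0101). That between AbsPro and enterocytes was lost with DESeq2 (0.113), its size factors (0.0633), library totals (0.0468) and only the cell types compared (0.0362), and without AbsPro library 2 (0.0284) or enterocyte library 2 (0.014), 3 (0.0281) or 5 (0.0111).

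Slc39a4 had 1183, 1597 and 1079 in stem cells, 1589, 2997 and 1645 in AbsPro and 881, 1813, 989 and 1245 in SecPDG. Tuft libraries held 577, 660, 705, 536 and 959, enterocytes 1682, 1660, 1225, 2108 and 2330, and EECs 363 and 1755. It was not called in the 8 comparisons, but enterocytes were called above tuft cells, by 1.38 ± 0.30 on the log2 scale (edgeR adjusted p = 0.000501), with no overlap. Slc39a1, a zinc importer of many tissues, had 1180, 1656 and 1381 in stem cells, 1742, 2014 and 1566 in AbsPro and 1548, 2856, 2084 and 2155 in SecPDG. Tuft libraries held 1720, 1299, 1512, 1269 and 1974, enterocytes 672, 779, 402, 1468 and 810, and EECs 262 and 564. It fell by 1.72 ± 0.45 from stem cells to EECs (edgeR adjusted p = 0.00144), by 2.34 ± 0.44 from SecPDG to EECs (edgeR adjusted p = 2.65e-05) and by 1.1 ± 0.31 from AbsPro to enterocytes (edgeR adjusted p = 0.00381). Both EEC libraries lay below all stem cell and SecPDG libraries. The Slc39a1 call in enterocytes was lost with the size factors of DESeq2 (0.0149), library totals (0.0103) and only the cell types compared (0.0182), and without AbsPro library 2 (0.0236) or enterocyte library 3 (0.017).

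Slc39a6, a zinc importer of the LIV-1 subfamily, was called higher in EECs than in each of the other 5 cell types. It had 128, 102 and 96.4 in stem cells, 84.1, 151 and 46.9 in AbsPro and 216, 83.3, 116 and 103 in SecPDG. Tuft libraries held 304, 196, 183, 255 and 152, enterocytes 54.1, 88.3, 193, 67.3 and 67.9, and EECs 631 and 809. Both EEC libraries lay above all others. EECs were 6.71-fold above stem cells (log2 fold change 2.75 ± 0.44, edgeR adjusted p = 1.71e-06), 7.62-fold above AbsPro (2.93 ± 0.46, edgeR adjusted p = 1.37e-06) and 5.51-fold above SecPDG (2.46 ± 0.42, edgeR adjusted p = 4.62e-06). They were 3.36-fold above tuft cells (1.75 ± 0.39, edgeR adjusted p = 0.000605) and 7.54-fold above enterocytes (2.91 ± 0.43, edgeR adjusted p = 6.04e-07). Slc39a6 was called in EECs against stem cells and SecPDG also without either EEC library, but the call against tuft cells was lost without EEC library 2 (adjusted p = 0.012 in edgeR), and in the older fit (0.0276). The remaining zinc importers were not called in the 8 comparisons. Slc39a9 of the Golgi had group means from 987 normalized counts in EECs to 2305 in AbsPro, Slc39a14 from 489 in enterocytes to 965 in SecPDG, and Slc39a3 from 179 in EECs to 354 in stem cells. Slc39a2 and Slc39a12 stayed under the minimum mean.

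Of the copper carriers, 1 was called in 1 of the 8 comparisons. Slc31a1, the copper importer, had 711, 1268 and 908 in stem cells, 1737, 1678 and 1653 in AbsPro and 1463, 1951, 1431 and 1789 in SecPDG. Tuft libraries held 825, 1147, 1321, 895 and 1565, enterocytes 852, 938, 663, 1782 and 1288, and EECs 398 and 807. It was called lower in EECs than in SecPDG, a call lost without EEC library 1 (0.0166), with the size factors of DESeq2 (0.0121), library totals (0.0104) and only the cell types compared (0.0159). Slc31a2, its relative of endosomes that lies 62 kb away on chromosome 4, was called in none of the 15 pairs and had group means from 154 normalized counts in stem cells to 237 in EECs.

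Other genes of metal handling were taken from 4 lists, of 25 iron, 11 copper, 8 zinc and 17 magnesium genes, to place the transporters beside the rest of each pathway. Of the 23 iron genes tested, 1 was called in SecPDG against stem cells (lower), 5 in tuft cells (2 higher), 7 in enterocytes (3 higher) and 7 in EECs (2 higher), and 0 in AbsPro. In the same order, 4.98, 12.1, 22.2, 19.9 and 0.588% of all genes tested were called. Of the genes over the minimum mean, 8.6, 20.8, 38.4, 34.4 and 1.02% were called. None of the 4 lists was tested against these shares. Over the 4 lists 15 genes were called in EECs against stem cells, of which 5 held without EEC library 1 and 11 without EEC library 2. Tfr2, a sensor of transferrin iron, had no read in the 3 stem cell libraries and 44.3 to 203 normalized counts in enterocytes. It was called higher than in stem cells in enterocytes (log2 fold change 9.54), tuft cells (9.61) and EECs (9.79). The EEC call of Tfr2 was lost without EEC library 1 (log2 change 9.04). Slc46a1, the heme and folate carrier, had 50.5, 52.5 and 12.1 in stem cells and 344, 259, 300, 391 and 168 in enterocytes (log2 fold change 2.94 ± 0.52, edgeR adjusted p = 1.1e-05). Steap4, a metalloreductase, stood at 231 and 192 in EECs and was called higher there than in stem cells (3.03 ± 0.71, edgeR adjusted p = 0.0005), a call at the threshold without EEC library 1 (0.01). Its relative Steap3 stood at 217 and 40 and was called lower (-2.25 ± 0.54, edgeR adjusted p = 0.000624), which was lost without EEC library 2 (0.0523). The iron chaperone gene Pcbp2 stood at 503 and 2834 and was called lower (-1.91 ± 0.48, edgeR adjusted p = 0.00107), which was lost without EEC library 1 (0.0106). Tfrc, the transferrin receptor, had 2843, 3904 and 4310 in stem cells, 1564, 1665, 1896, 1303 and 2186 in tuft cells and 365 and 1050 in EECs, and was called lower in tuft cells (-1.09 ± 0.32, edgeR adjusted p = 0.00775) and EECs (-2.34 ± 0.46, edgeR adjusted p = 5.33e-05), the latter also without either EEC library. Fth1, the ferritin heavy chain, ran from 6715 to 7438 in stem cells and from 9003 to 19160 in enterocytes and was not called (0.89 ± 0.40, edgeR adjusted p = 0.0463). Heph, the ferroxidase that works with Slc40a1, was called higher in tuft cells (2656 ± 575 (SD, n = 5) against 1091 ± 129 (SD, n = 3) in stem cells, edgeR adjusted p = 0.00565) but not in enterocytes (1643 ± 613 (SD, n = 5), edgeR adjusted p = 0.137). Cybrd1, the ferric reductase of the apical membrane, had no read in stem cells and 148, 110, 127, 36.5 and 80.3 in enterocytes, with a mean over all libraries under the minimum. Background from exon length was estimated for members only. Per kilobase it ran from 0.139 to 0.248 normalized counts in stem cells and from 0.576 to 3.39 in tuft cells. In enterocytes it was 2.09 to 6.16 and in EECs 1.79 to 9.61. Its part in list genes with few or no reads in stem cells was not tested.

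Of the 10 copper genes tested, 3 were called in tuft cells against stem cells (1 higher), 3 in enterocytes (2 higher) and 4 in EECs (2 higher). The shares of all genes called were 12.1, 22.2 and 19.9%. Atp7b, a copper exporting ATPase, had 0, 0 and 3.37 in stem cells and 121, 127, 192, 168 and 143 in enterocytes (edgeR adjusted p = 3.33e-06), while its relative Atp7a had 1190 ± 162 (SD, n = 3) in stem cells and 752 ± 312 (SD, n = 5) in enterocytes and was not called (edgeR adjusted p = 0.0472). Atp7b was also called higher than in stem cells in tuft cells (log2 fold change 6.12) and EECs (7.22). Its EEC call was lost without EEC library 1 (log2 change 5.33). Sod1, the copper and zinc superoxide dismutase, stood at 304 and 1966 in EECs and was called lower there (-1.59 ± 0.46, edgeR adjusted p = 0.00388), which was lost without EEC library 1 (0.056). Commd1 stood at 222 and 294 and was called lower (-1.64 ± 0.49, edgeR adjusted p = 0.0047), which was lost without EEC library 1 (0.0159) or 2 (0.0126). Cp, the ferroxidase ceruloplasmin, was called higher in EECs (3.31 ± 0.92, edgeR adjusted p = 0.00255), where it stood at 342 and 18.2 against 52, 0 and 0 in stem cells. The groups overlapped, and without EEC library 1 the log2 change of Cp was 0.04. The copper chaperone gene Sco1 was called lower in tuft cells (-1.21 ± 0.33, edgeR adjusted p = 0.00553).

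Of the 8 zinc genes, 2 were called in SecPDG against stem cells (1 higher), 4 in tuft cells (2 higher), 3 in enterocytes (2 higher) and 3 in EECs (1 higher). The shares of all genes called were 4.98, 12.1, 22.2 and 19.9%. The metallothionein gene Mt2 had 1184, 447 and 1069 in stem cells and 248, 107, 198, 85.1 and 176 in tuft cells (log2 fold change -2.46 ± 0.47, edgeR adjusted p = 8.13e-05), and Mt1 had 2947, 1570 and 2645 and 618, 381, 719, 308 and 948 (-1.99 ± 0.36, edgeR adjusted p = 2.93e-05). Mt2 was also called lower than in stem cells in SecPDG (-1.82), enterocytes (-1.88) and EECs (-2.56), and Mt1 in EECs (-1.75). The EEC call of Mt2 was lost without EEC library 1 (log2 change -2.54) or 2 (-2.85). That of Mt1 was lost without EEC library 1 (-1.52). Mt3 followed another pattern, with no read in stem cells, 219, 93.2, 135 and 138 in SecPDG and 151, 89.6, 136, 96.6 and 192 in tuft cells. Tmem163, a zinc carrier, stood at 362 and 130 in EECs and was called higher there (5.69 ± 1.01, edgeR adjusted p = 7.76e-06), also without either EEC library, and Crip1 higher in enterocytes (1.26 ± 0.38, edgeR adjusted p = 0.00464).

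Of the 17 magnesium genes, 4 were called in SecPDG against stem cells (3 higher), 2 in tuft cells (both higher), 2 in enterocytes (1 higher) and 1 in EECs (higher). The shares of all genes called were 4.98, 12.1, 22.2 and 19.9%. Trpm6, the apical magnesium channel of the colon, had 195, 257 and 223 in stem cells, 596, 582 and 1109 in AbsPro and 0, 53.5, 11 and 42.1 in SecPDG. Tuft libraries held 41.5, 189, 168, 146 and 53.5, enterocytes 1998, 2213, 1702, 3442 and 2707, and EECs 394 and 1249. It was called higher in enterocytes (3.42 ± 0.39, edgeR adjusted p = 6.03e-10) and lower in SecPDG (-3.20 ± 0.62, edgeR adjusted p = 0.000145) than in stem cells. It was also called higher in EECs (1.91 ± 0.45, edgeR adjusted p = 0.000538), which was lost without EEC library 2 (0.258). Nipal2, of a family of magnesium carriers, was called higher in SecPDG (2.06 ± 0.38, edgeR adjusted p = 8.22e-05) and tuft cells (1.67 ± 0.38, edgeR adjusted p = 0.00074), and Nipal3 was called higher in both as well. Mmgt1 was called lower in enterocytes (-1.06 ± 0.32, edgeR adjusted p = 0.00404).

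RNA processing of the members was described from the tables of skipped exons and of distal polyadenylation sites. Over the 5 comparisons with stem cells, 9 tests on skipped exons of members had at least 10 reads in every library, and edgeR called 0 of them at an adjusted p under 0.05, with 0.0% of all events called in any table. At an unadjusted p under 0.05 there were 0 of these 9 and 1.21% of all 9766 tests, a share below that threshold, so the test was conservative. The 60 base exon of Slc30a9, a mitochondrial zinc carrier, at chr5:67324674-67324733 (mm10) was included at 100, 72.8 and 35.9% in stem cells and at 100, 100 and 96.4% in AbsPro, on 38 or more reads per library. It was not called (edgeR adjusted p = 0.756). Shares of the distal site were tested for members 39 times with limma, and 0 were called at an adjusted p under 0.05, with 0.0% of all transcripts called in any table. At an unadjusted p under 0.05 there were 3 of the 39, of Slc39a8 in EECs and of Slc39a1 and Slc39a7 in tuft cells, beside 6.14% of all 15640 tests. The largest of these was for Slc39a8, whose distal share was 0.78, 0.74 and 0.66 in stem cells and 0.2 and 0.44 in EECs (limma adjusted p = 0.23). With rMATS and DaPars the authors reported splicing and polyadenylation changes, most of them between stem cells and AbsPro. Those were called by other tests than the ones used here. The lack of calls here thus does not show that RNA processing stays the same.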

How the data were processed

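RNA-seq read counts per gene were deposited by the authors for 22 libraries of 6 sorted cell types, counted without strand (STAR 2.5.2a, HTSeq 0.6.1p1, mm10, per the methods and submitters' notes). Counts held 4122122 to 22462518 reads on genes per library, while 53.9 to 91.6% of reads lay in the 5 entries that name no gene, which were left out. All libraries entered 1 edgeR 4.0.16 quasi-likelihood fit (TMM scaling, filterByExpr, 22781 genes, R 4.3.3), with cell type as the only term and Benjamini-Hochberg adjustment over all genes in each comparison. The current form of the fit was chosen after values under it and under the older form had been seen. Normalized counts are counts scaled to a mean library. A call required an adjusted p below 0.01 together with 50 or more normalized counts on average over all libraries. Background was the count per kilobase on 1485 genes of receptor and placental families. Replicates are libraries, from 1 mouse each in stem cells and AbsPro and from several in the other cell types. The p-values measure the spread between these libraries, with 1 estimate shared by all cell types. No 2 libraries were identical, and same-numbered libraries did not deviate together (median r = 0.00138).

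Per the authors' methods, exon inclusion and skipping read numbers came from rMATS and distal site fractions (the share of transcripts using the distal polyadenylation site, 0 to 1) from DaPars. The authors' fraction values carry no depth. They were tested with edgeR on the read numbers and with limma 3.58.1 on the fractions. These tables name no libraries, so only the cell type of each value is known. Columns of the authors' own comparisons (differences and p-values) and the MAJIQ tables were not used.

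The members and lists were chosen with earlier results of these data known. All values are given for members called in the 8 comparisons or highest in 1 cell type, and full statistics for at most the 3 largest calls in each direction. Of each metal list at most the 3 largest calls in each direction are named, besides Tfrc, Fth1, Heph, Cybrd1, Atp7a, Atp7b, Mt1, Mt2 and Trpm6. Alternatives were DESeq2 1.42.0, other scalings, filters and thresholds, a replicate term, single pairs of cell types, the older fit, and leaving out each library.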

Additional observations from a re-analysis of the deposited data

Results flagged for a closer look

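In 57 groups of 4 or 5 libraries of called members, 3 held a library far from the rest, and chance alone gives about 1 in 20, which is about the number found. Slc39a6 was at 193 normalized counts in enterocyte library 3, against 54.1 to 88.3 in the other enterocyte libraries. Slc39a8 was at 1700 in SecPDG library 1, against 1862 to 1888 in the other SecPDG libraries. Slc41a1 was at 391 in enterocyte library 4, against 209 to 258 in the other enterocyte libraries.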

How the results depend on the processing

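Of the 61 calls in 10 comparisons, 27 held under all 10 other settings and without each library, and no call reversed. In the 8 comparisons 45 calls were made and 15 held in this way. The older edgeR fit lost 21 of the 45, fitting only the 2 cell types compared lost 13, the size factors of DESeq2 and library totals lost 6 each, DESeq2 lost 5 and the replicate block lost 1, that of Slc30a10 in SecPDG against stem cells. With the older fit 3 members were called in SecPDG and 2 in tuft cells against stem cells, 0 in enterocytes against AbsPro, 0 in tuft cells against SecPDG, and 0 were highest in 1 cell type. With only the 2 cell types compared there were 10 in SecPDG and 1 in EECs against stem cells, 3 in enterocytes against AbsPro, 3 in tuft cells against SecPDG and 10 in SecPDG against AbsPro. DESeq2 called 2 members in AbsPro and 10 in EECs against stem cells, its size factors gave 10 in EECs, and library totals gave 10 in SecPDG against AbsPro. An adjusted p under 0.05 gave 10 in EECs, 11 in enterocytes and 11 in tuft cells against stem cells and 12 in enterocytes against AbsPro, and no minimum mean gave 10 in enterocytes against stem cells. Shares of all genes under these settings and without 1 library are not given, apart from those of the older fit above. The causes were not tested.

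Leaving out 1 library gave, against stem cells, 6 to 14 calls (14 without EEC library 2) for EECs, 5 to 9 for enterocytes, 3 to 7 (3 without stem library 2) for tuft cells, 4 to 5 for SecPDG and 0 to 1 for AbsPro. It gave 1 to 9 in enterocytes against AbsPro, 11 to 16 in EECs and 0 to 1 in tuft cells against SecPDG, 4 to 6 in SecPDG against AbsPro and 9 to 13 in enterocytes against tuft cells. It left 1 (without EEC library 2) to 2 members highest in 1 cell type, 0 exon events and 0 to 1 distal shares. Replicate numbers did not pair the libraries: 16 of 44 same-numbered pairs correlated above 0.1, and 6 of 22 libraries correlated best with their own number. With the replicate block 11 members were called in enterocytes against AbsPro. No paired analysis was possible for exon events and distal shares because their columns carry no library names. The SD of 2 EEC libraries and their uneven depth limit all EEC values.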
